A study of Mus musculus with 39 samples.

Results

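The genes described here are 9 mouse genes that interferon can induce or that build the MHC class I complex, namely Ifitm1, Ifitm2, Ifitm3, B2m, H2-K1, H2-D1, Tap1, Ly6e and Isg15. They were chosen by name, and all 9 were found among the 25219 genes of the deposited table. The table holds 39 single cells of the intestinal crypt, sorted as tdTomato+ and Sca1- from mice that carried Lgr5-EGFP-Ires-CreERT2 together with Rosa-lsl-tdTomato. In these mice tamoxifen activates a Cre recombinase that is made from the Lgr5 locus, so that Lgr5-expressing cells and all of their progeny turn red, and the cells are called Sca1- Lgr5-derivatives below. Every cell came from the same treatment, with tamoxifen given 24 h before a total body irradiation of 10 Gy and sorting 48 h after the irradiation. No unirradiated cells were analysed here, so no level can be set against an undamaged crypt. The labels name no animal for any cell, so the 39 cells were treated as 1 biological sample. Each SD below is a spread over cells, and no p-value was computed.

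Interferons are secreted proteins that signal through cell surface receptors, JAK kinases and STAT and IRF factors to induce a large set of antiviral genes. The Ifitm genes encode small membrane proteins that hinder the entry of viruses, and in mice some of them are also made by stem cells without any infection. MHC class I molecules consist of a heavy chain, here H2-K1 or H2-D1, the light chain beta-2 microglobulin encoded by B2m, and a peptide that a transporter containing the Tap1 subunit carries into the endoplasmic reticulum. Isg15 encodes a ubiquitin-like protein that is joined to other proteins and is among the most inducible interferon targets, and Ly6e encodes a lipid-anchored surface protein of the same family as Sca1.

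The positions in the deposited table are those of mouse build GRCm38. The 3 Ifitm genes lie within 55.9 kb of chromosome 7, with Ifitm2 (Entrez 80876) at chr7:140954839-140955961, Ifitm1 (68713) at chr7:140967429-140969827 and Ifitm3 (66141) at chr7:141009590-141010744. H2-K1 (14972, chr17:33996012-34000333), Tap1 (21354, chr17:34187556-34197225) and H2-D1 (14964, chr17:35263094-35267497) lie in the MHC region of chromosome 17. B2m (12010) is at chr2:122147687-122153082, Ly6e (17069) at chr15:74955051-74959905 and Isg15 (100038882) at chr4:156199424-156200818.

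Promoters were searched for the interferon-stimulated response element, the site of STAT and IRF complexes, written as GAAA, any 2 bases, GAAA on either strand. RefSeq promoters of GRCm38.p6, each 300 bases long from 250 bases before the start site, were given for 8 of the 9 genes. H2-K1 had 2 promoters and each other gene given had 1. Of the 8 genes, 4 held a match in a promoter. Counted by promoter and not by gene, the share was 3.44% of all 32851 promoters. It was 42.4% (14 of 33) for the other interferon-stimulated genes on the list described below. The stretches with the matches are shown because they set genes with very different levels in these cells side by side, and capitals mark the matched bases.
Isg15 (chr4:156200819-156200948, minus strand): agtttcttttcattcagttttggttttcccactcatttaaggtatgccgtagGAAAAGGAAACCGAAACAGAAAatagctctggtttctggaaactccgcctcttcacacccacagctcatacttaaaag
Ifitm3 (chr7:141010716-141010845, minus strand): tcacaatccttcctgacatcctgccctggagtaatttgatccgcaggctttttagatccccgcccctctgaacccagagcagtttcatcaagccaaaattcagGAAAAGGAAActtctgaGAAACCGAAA
Ifitm2 (chr7:140955962-140956091, minus strand): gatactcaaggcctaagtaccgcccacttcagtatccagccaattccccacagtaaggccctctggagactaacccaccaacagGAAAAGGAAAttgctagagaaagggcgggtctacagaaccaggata
B2m (chr2:122147538-122147686, plus strand): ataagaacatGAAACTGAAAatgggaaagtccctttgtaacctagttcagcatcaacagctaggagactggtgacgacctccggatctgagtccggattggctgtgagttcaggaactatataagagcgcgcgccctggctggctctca
With the start site counted as position 0, Isg15 held 3 overlapping matches that began at -78, -72 and -66. Ifitm3 held 2, which began at 2 and 19, just inside the transcript, and Ifitm2 held 1 at -46 and B2m 1 at -139. For Ifitm2 the start site used was 140955961, while its RefSeq gene reaches to 140959686, so -46 refers to the start site used only. The promoter of Ifitm3 also held a gamma-activated site, written as TTC, any 3 bases, GAA, which overlapped its second match and which 8.30% of all promoters held. These letters were not in the windows of Ifitm1, Tap1, H2-D1 and H2-K1. A match is a string of letters and not a measured binding site.

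The cells had 398418 to 3903971 estimated counts assigned to genes, and between 2287 and 5779 genes were at 1 FPKM or more (FPKM is the number of fragments divided by transcript length and library total), the limit at which a gene is called detected here. FPKM divides by transcript length, so levels of different genes can be set side by side. Cells 9 and 79, by the numbers in the labels, had the fewest genes detected, 2287 and 2335, against at least 2988 in each of the other 37 cells, and the main correlations are also given without cell 79 or without both. The epithelial gene Epcam was detected in 39 of 39 cells, 11 of the 14 immune cell genes on the list and all 7 stromal and endothelial genes were detected in none, and the other 3 immune genes in 1 cell each. Ly6a, which encodes Sca1, was detected in 4 of the 39 cells, with a highest value of 509 FPKM.

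Of the 9 genes, 6 were detected in at least 20 of the 39 cells, while 14.5% of all genes in the table were. Ifitm2 and B2m were detected in 39 of 39 cells (exact 95% interval 91.0% to 100%, counting error only), and Ifitm3 in 36 (92.3%, 79.1% to 98.4%). The classical heavy chains H2-K1 and H2-D1 were detected in 35 cells each (89.7%, 75.8% to 97.1%) and Ly6e in 31 (79.5%, 63.5% to 90.7%). Tap1 was detected in only 4 cells (10.3%, 2.87% to 24.2%), and Ifitm1 and Isg15 in 1 cell each (2.56%, 0.0649% to 13.5%). A transcript lost before amplification is also listed at 0, so these shares are of cells at 1 FPKM or more and not of cells that express the gene. Counts above 0 were found in 38 cells for H2-K1 and H2-D1, 37 for Ifitm3, 34 for Ly6e and 7 for Tap1. The set held 6 genes at 1 FPKM or more in at least 31 cells and 3 in at most 4, and each side held both Ifitm and antigen presentation genes.

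Ifitm3 had the highest median of the 9 genes. Its FPKM ran from 0 to 1957 with a median of 539.7, and its mean was 595 ± 509 (SD, n = 39 cells). Ifitm2, its close relative, ran from 2.68 to 1258 FPKM with a median of 448 and a mean of 497 ± 305. By their medians, Ifitm3 and Ifitm2 stood at places 142 and 177 of all 25219 genes. Ifitm2 exceeded 100 FPKM in 36 cells and Ifitm3 in 31, and the distribution of Ifitm3 had a longer lower tail, with an SD of 3.19 on the log2(FPKM + 1) scale against 1.63 for Ifitm2. The order of the pair was not fixed within cells, since Ifitm3 was the higher in 20 cells and Ifitm2 in 19.

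The lower tail of Ifitm3 consisted of 6 cells under 10 FPKM, and 3 of them still held Ifitm2 at 100 FPKM or more. In cell 96 Ifitm3 was at 0.455 FPKM and Ifitm2 at 788. In cell 92 Ifitm3 was at 0 and Ifitm2 at 259, and in cell 4 the values were 7.23 and 212 FPKM. The other cells of this tail were low in both, with Ifitm2 at 44.4 FPKM in cell 34, 13.1 in cell 79 and 2.68 in cell 9. The reverse pattern did not occur, since the 3 cells with Ifitm2 under 100 FPKM were also under 10 FPKM for Ifitm3. Ifitm1 was listed at 0 in 38 cells and at 12.9 FPKM, from 25 estimated counts, in cell 79. The other family members on the list, Ifitm5, Ifitm6, Ifitm7 and Ifitm10, were detected in no cell.

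**Figure D1:**
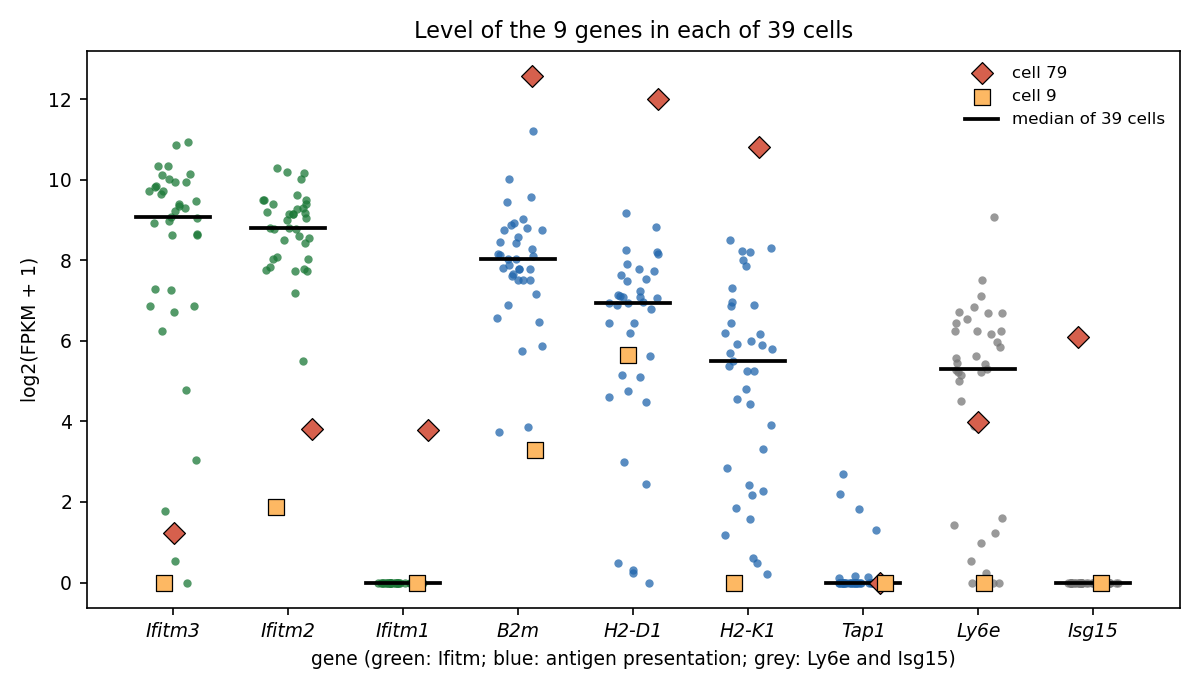
Level of each of the 9 genes in each of the 39 cells on the log2(FPKM + 1) scale. Each point is a cell, the black bar is the median, and cells 79 and 9 have their own symbols. Ifitm3 and Ifitm2 have the highest medians, cell 79 is the highest cell for B2m, H2-D1, H2-K1, Ifitm1 and Isg15, and Ifitm1 and Isg15 are at 0 in the other 38 cells.

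Among the antigen presentation genes the light chain was the most abundant. B2m ran from 8.80 to 6098 FPKM with a median of 259, at place 295 of all genes. H2-D1 ran from 0 to 4117 FPKM with a median of 123, and H2-K1 from 0 to 1795 FPKM with a median of 43.9. In each of these 3 genes the highest value was that of cell 79, and the next highest was 2360 FPKM for B2m, 572 for H2-D1 and 362 for H2-K1. The mean of B2m was 490 ± 1002 FPKM over 39 cells and 343 ± 398 without cell 79, so that 1 cell held 31.9% of all B2m FPKM, 36.98% of H2-K1 and 44.8% of H2-D1.

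B2m exceeded the sum of the heavy chains in 26 of 39 cells, and the log2 difference between them was 0.67 ± 1.798 (mean ± SD, n = 39 cells). Every cell had at least 1 of these heavy chains detected, and 31 cells had both. In 6 cells 1 heavy chain was below 1 FPKM while the other was at 10 FPKM or more, for example in cell 30, with H2-K1 at 0.514 FPKM and H2-D1 at 456, and in cell 93, with H2-K1 at 123 and H2-D1 at 0. The log2 difference of H2-D1 over H2-K1 was 1.15 ± 3.17 and ran from -6.96 to 8.24. The heavy chains are near-identical to other class I genes in parts of their sequence, and the estimated counts of H2-D1 were not whole numbers (within 0.001) in 33 of the 38 cells with a count, as happens when reads are divided between genes. In the GENCODE transcripts, 3.59% of the 100-base windows of H2-D1 and 0.957% of those of H2-K1 also occurred in another gene, while the transcripts of B2m, Ifitm3 and Isg15 shared no such window. The deposited table also holds H2-L as a gene of its own at chr17:35263123-35266730, within the span of H2-D1. H2-L was detected in 15 cells, with a highest value of 128 FPKM. Counts were not whole in 4 of 38 cells for H2-K1, 8 of 37 for Ifitm3 and 1 of 39 for B2m, so that values of H2-D1 are the least certain by this sign. Ifitm2 shared 34.9% of its windows with 3 copies (Gm11951, Gm45717 and Gm8865) that are no rows of the table used here.

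Tap1 was rarely detected, unlike the heavy and light chains it serves. It was above 1 FPKM in cells 86, 48, 66 and 93, at 5.44, 3.58, 2.51 and 1.48 FPKM, and it was at 0 in 32 cells, cell 79 among them. Its partner subunit Tap2 reached 1 FPKM in only 1 cell. Of the 8 genes for peptide loading and assembly on the list, 5 were detected in at least 20 cells, against 14.5% of all genes. The chaperones Canx and Pdia3 were detected in 39 cells each, with medians of 484 and 131 FPKM, Calr in 37 with a median of 158 FPKM, and Tapbpl, a relative of tapasin, in 39 with a median of 25.96 FPKM. Canx, Pdia3 and Calr also serve the folding of many other proteins. Of the 5 genes of the immunoproteasome and its activator, which cut proteins into peptides for class I, the activator subunits Psme2 and Psme1 were detected in 36 cells each. Of the inducible catalytic subunits, Psmb10 was detected in 32 cells, Psmb8 in 17 and Psmb9 in 14.

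Among 14 other class I heavy chains, 2 were detected in at least 20 cells, as were 14.5% of all genes. The nonclassical gene H2-T23 was detected in 39 cells with a median of 95.4 FPKM, more than H2-K1, and H2-Q4 in 20 cells with a median of 1.10 FPKM. H2-T3 and H2-T24 were detected in 14 and 7 cells.

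The remaining members differed in how they were spread. Ly6e ran from 0 to 539.5 FPKM with a median of 38.4 and a mean of 59.5 ± 90.4, and it was at 0 in 5 cells. Its highest value, in cell 34, was far above the next highest value of 181 FPKM in cell 86, and cell 34 was also the cell with the highest Ly6a. Isg15 was listed at 0 in 38 cells and at 67.04 FPKM, from 117 estimated counts, in cell 79. The genes that join or remove the Isg15 protein were also rare, with Ube2l6 detected in 7 cells and Usp18, Uba7 and Herc6 in 1 cell each.

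By median FPKM the order was Ifitm3, Ifitm2, B2m, H2-D1, H2-K1 and Ly6e, with Tap1, Ifitm1 and Isg15 at 0. Neighbours in this order overlapped widely over cells. The mean log2 difference went against the order of medians for Ifitm3 over Ifitm2, at -0.72 ± 2.47, and Ifitm3 over B2m was at -0.10 ± 3.25. Ifitm2 was above B2m in 24 of 39 cells, with a log2 difference of 0.62 ± 2.32, and H2-K1 was above Ly6e in 22, with a difference of 0.57 ± 2.97. The largest mean step was from B2m to H2-D1, where B2m was the higher in 33 of 39 cells with a log2 difference of 1.73 ± 2.46. No neighbouring pair differed on average by more than 1 SD over cells.

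The Ifitm genes were then set against the antigen presentation genes cell by cell. The summed FPKM of the 3 Ifitm genes had a median of 1018 and ran from 2.68 in cell 9 to 2907 in cell 18. The sum of B2m, H2-K1, H2-D1 and Tap1 had a median of 477 and ran from 15.1 in cell 56 to 12010 in cell 79. The Ifitm sum was the higher in 30 of 39 cells, and the log2 difference of Ifitm over antigen presentation was 0.73 ± 2.37. It ran from -8.73 in cell 79 to 4.42 in cell 56, where the Ifitm genes summed to 344 FPKM against 15.1 FPKM. Without cell 79 the lowest value was -3.99.

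**Figure D2:**
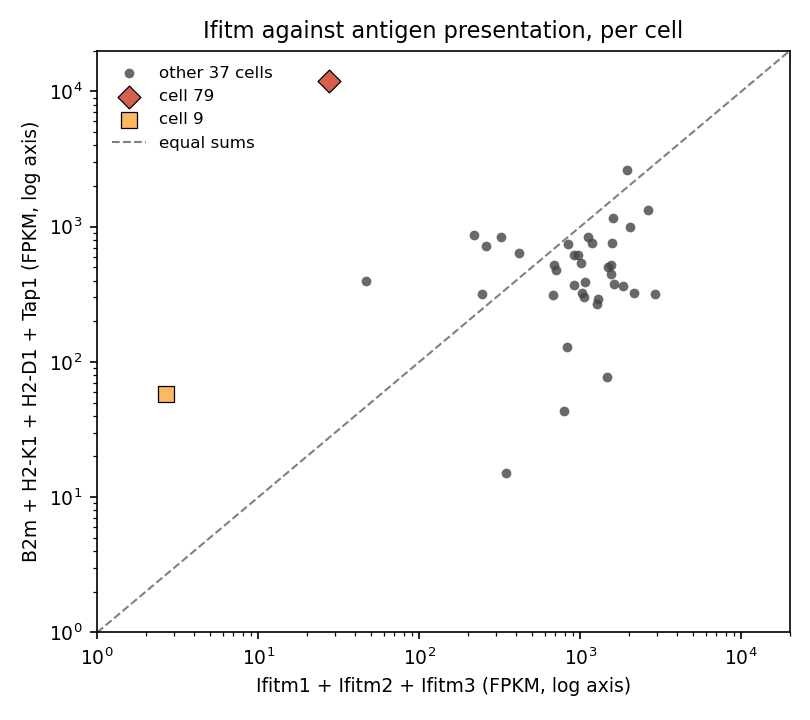
Summed FPKM of the 3 Ifitm genes (x axis) against that of the 4 antigen presentation genes (y axis) in each of the 39 cells, both on log axes. Below the dashed line of equal sums lie 30 cells, and cell 79 stands apart at the top left with an antigen presentation sum of 12010 FPKM.

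Co-variation was measured as Spearman's rho of FPKM across the 39 cells. All genes of a cell share its library, its depth and its losses before amplification, so rho is given as a description beside that of all genes. Over all pairs of the 9804 genes averaging 1 FPKM or higher, the median rho was 0.031, and 0.232% of pairs reached 0.5. Of the 36 pairs of the 9 genes, 1 reached 0.5, and this was Ifitm1 with Isg15, a rho of 1 that rests entirely on cell 79.

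The closest pair among the 6 widely detected genes was Ifitm2 and Ifitm3, with a rho of 0.47. It was 0.44 without cell 79, 0.39 without cells 9 and 79, and 0.48 with the number of genes detected held constant. Ifitm3 stood at place 31 of 9803 genes by rho with Ifitm2, and Ifitm2 at place 60 by rho with Ifitm3. The median over the 3 Ifitm pairs was -0.23, because Ifitm1 was above 0 only in cell 79, in which Ifitm2 and Ifitm3 were near their lowest.

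The antigen presentation genes varied together less. B2m had a rho of 0.29 with H2-D1 and 0.24 with H2-K1, and the classical heavy chains had a rho of 0.18 with each other. Without cell 79 these values were 0.23, 0.17 and 0.11, and without cells 9 and 79 they were 0.21, 0.10 and 0.075. The median over the 6 pairs of the set was 0.15, and Tap1 with H2-D1 was the single negative pair at -0.11. H2-D1 was at place 529 and H2-K1 at place 988 of 9803 genes by rho with B2m.

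Between both sets the median rho over 12 pairs was 0.096, and over the 6 pairs of widely detected genes it was -0.046, or 0.020 without cell 79. B2m and Ifitm3 had the highest value of those 6, 0.25, or 0.33 without cell 79, while Ifitm2 with B2m was at -0.06 and Ifitm3 with H2-K1 at -0.11. Ly6e went with the heavy chains more than with the Ifitm genes, with a rho of 0.39 with H2-K1 and 0.27 with H2-D1 against 0.20 with Ifitm3 and 0.03 with Ifitm2. Ly6e also had a rho of 0.59 with the number of genes detected, and with that number held constant its values with H2-K1 and H2-D1 were 0.30 and 0.17. The differences between these correlations were not tested.

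**Figure D3:**
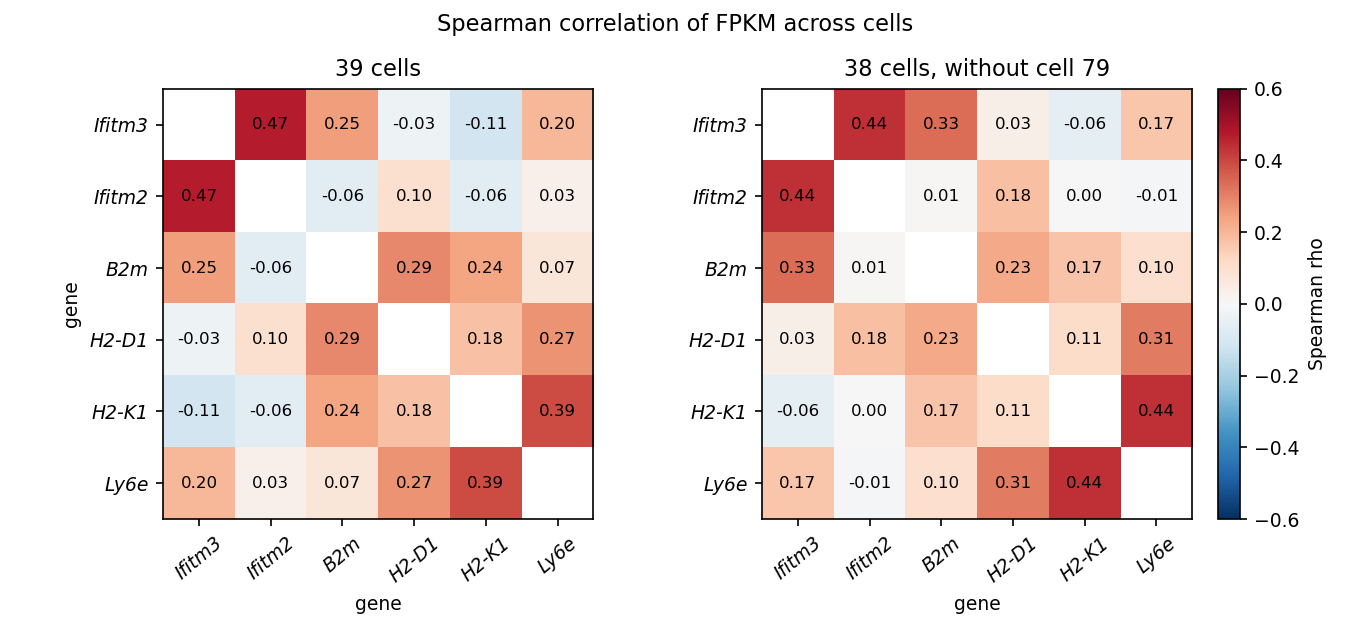
Spearman's rho of FPKM across cells for the 6 widely detected genes, over all 39 cells (left) and over the 38 cells without cell 79 (right), on a colour scale from blue (negative) to red (positive). Ifitm2 with Ifitm3 is at 0.47 and 0.44, and Ifitm2 with B2m is at -0.06 and 0.01.

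The Ifitm pair went with the crypt stem cell gene Olfm4 and the antigen presentation genes had values below 0. Olfm4, the most abundant of the 7 stem cell genes on the list, was detected in 33 of 39 cells with a median of 829 FPKM. Its rho was 0.54 with Ifitm2 and 0.45 with Ifitm3, at places 11 and 67 of 9803 genes, and 0.52 and 0.43 without cell 79. With B2m, H2-K1 and H2-D1 the rho of Olfm4 was -0.15, -0.19 and -0.10, and without cell 79 it was -0.095, -0.14 and -0.041. The relation was not shared by all stem cell genes. Lgr5, detected in 8 cells, had a rho of -0.31 with Ifitm2 and -0.26 with Ifitm3, and Smoc2 had -0.14 and 0.14. The mean of the 7 genes on the log2 scale had a rho of 0.43 with Ly6e, 0.41 with Ifitm3 and 0.32 with Ifitm2. With the number of genes detected held constant these values were 0.28, 0.35 and 0.33, and those of Olfm4 alone were 0.54 with Ifitm2 and 0.46 with Ifitm3. Estimated counts on genes per cell had a rho of 0.48 with Ly6e, 0.45 with Ifitm2, 0.40 with Ifitm3, 0.29 with H2-K1, 0.0010 with H2-D1 and -0.06 with B2m. The share of the library total that fell on genes had a rho of 0.47 with Ifitm2, 0.16 with Ifitm3 and 0.16 with Ly6e. That share had 0.0038 with H2-D1, -0.13 with H2-K1 and -0.16 with B2m. The relations with stem cell genes were not recomputed with the counts or this share held constant.

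**Figure D4:**
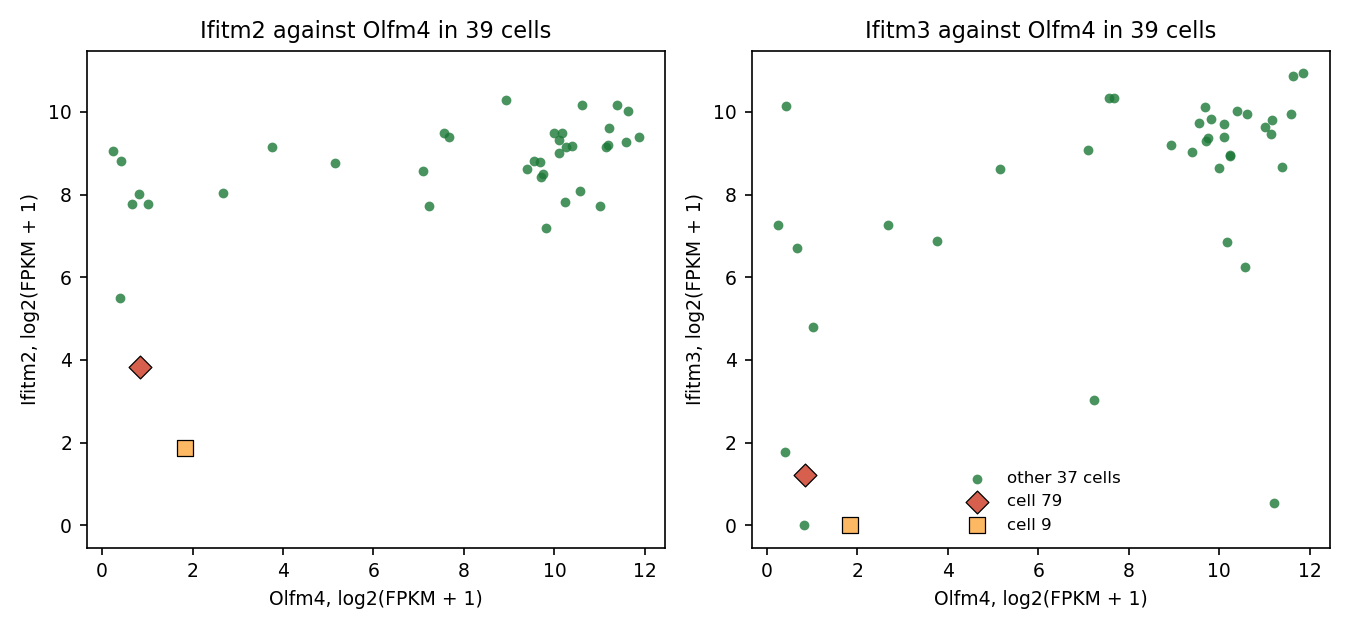
Ifitm2 (left) and Ifitm3 (right) against Olfm4 in each of the 39 cells, all on the log2(FPKM + 1) scale, with cells 79 and 9 marked. The correlation (Spearman) is 0.54 on the left and 0.45 on the right, and cells 79 and 9 lie in the low corner of both panels.

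Among 3363 genes outside the set that averaged 10 FPKM or higher and were detected in at least 20 cells, those nearest to the mean log2 level of the Ifitm genes were Aqp4 (rho 0.65), Clpp (0.62), Sptssa (0.60), Polr3k (0.60) and Eny2 (0.59). Aqp4, a water channel, is on the stem cell list used here. All 5 were again among the 5 nearest without cell 79, and none of them with Pearson's r in place of rho. Nearest to the antigen presentation genes were Zmat2 (0.56), Psmb3 (0.55), Cirh1a (0.53), Mesdc2 (0.53) and Gng12 (0.53), of which 2 remained without cell 79. Psmb3 encodes a subunit of the proteasome, the protease that makes the peptides. Cd3eap (0.69), Cirh1a (0.67) and Gfer (0.64) were nearest to Ly6e. For Isg15, on in 1 cell, the highest rho was 0.28, for Ddrgk1 and 1110059E24Rik, with Pole4 also at 0.28.

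Of 38 other interferon-stimulated genes on the list, 4 were detected in at least 20 cells and 10 in none. Of all genes, 14.5% were detected in at least 20 cells and 49.3% in any cell, the latter against 28 of the 38 listed genes. Highest by mean FPKM were Lgals3bp (34 cells, median 50.0 FPKM), Ifi27l2b (26 cells, median 7.20 FPKM), Ifi27 (8 cells, median 0) and Irgm1 (14 cells, median 0). The other genes detected in at least 20 cells were Xaf1 (26 cells, median 1.81 FPKM) and Trim25 (20 cells, median 1.07 FPKM). In the 38 cells other than cell 79, between 2 and 9 of the 38 genes were detected, with a median of 6. Of 9 interferon genes on the list, 8 were detected in no cell, and Ifnk was detected in 5 cells with a highest value of 12.6 FPKM. Of 9 interferon receptor chains and kinases, 4 were detected in at least 20 cells. The type II receptor chains Ifngr2 and Ifngr1 were detected in 30 and 28 cells. Of the type I chains, Ifnar1 was detected in 20 cells and Ifnar2 in 6, and of the type III chains, Il10rb in 13 and Ifnlr1 in 1. The kinase Jak1 was detected in 33 cells, Tyk2 in 6 and Jak2 in 4. Of the 9 STAT and IRF factors, 2 were detected in at least 20 cells, Irf1 and Irf2 with medians of 1.60 and 1.18 FPKM.

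Cell 79 was the exception, and it was singled out after its values had been seen. It was the highest of the 39 cells for 5 of the 9 genes, B2m, H2-K1, H2-D1, Ifitm1 and Isg15, while it was the highest cell for 4.09% of the 12426 genes detected in any cell. In the same cell Ifitm2 was at 13.1 FPKM and Ifitm3 at 1.34, place 38 and place 36 of the 39 cells from the highest. It was also the highest cell for 12 of the 28 other interferon-stimulated genes that reached 1 FPKM in any cell, and 19 of the 38 genes on the list were detected in it. Of these, 5 were detected in no other cell. They were Rtp4 at 536 FPKM, the oligoadenylate synthetases Oas3 at 270 and Oas2 at 87.9, the antiviral GTPase Mx1 at 244 and Ifit1 at 100.5. Usp18, which removes Isg15 from proteins, was at 699 FPKM in cell 79 and at most 0.191 FPKM elsewhere. The factor Irf7 was at 349 FPKM, and Psmb8 at 396.

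The values of cell 79 rested on many counts, with 12078 estimated counts for B2m, 6821 for H2-K1 and 16498 for H2-D1. Its library held 1466913 counts on genes. With the FPKM of each cell rescaled to the same sum, B2m was at 14314 in cell 79 and at most 4672 in any other cell, and H2-D1 was at 9663 against 1123. The most abundant gene of the cell was the enterocyte gene Fabp1 at 40997 FPKM, against at most 1095 elsewhere, followed by Krt18 at 15406. Of the 8 enterocyte genes on the list 3 were detected in cell 79, and of the 4 tuft cell genes 3. The medians in the other cells were 3 and 0. Olfm4 was at 0.792 FPKM in cell 79, and none of the 14 immune cell genes was detected. Of the 6 epithelial genes 4 were detected, with Epcam at 282 FPKM. Cdh1 and Krt19 were at 0 in this cell, while they were detected in 38 and 37 other cells. With 1 such cell, singled out after its values had been seen, nothing can be said of how often it occurs. The interval of 0.0649% to 13.5% given above is for the detection of Ifitm1 and of Isg15.

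**Figure D5:**
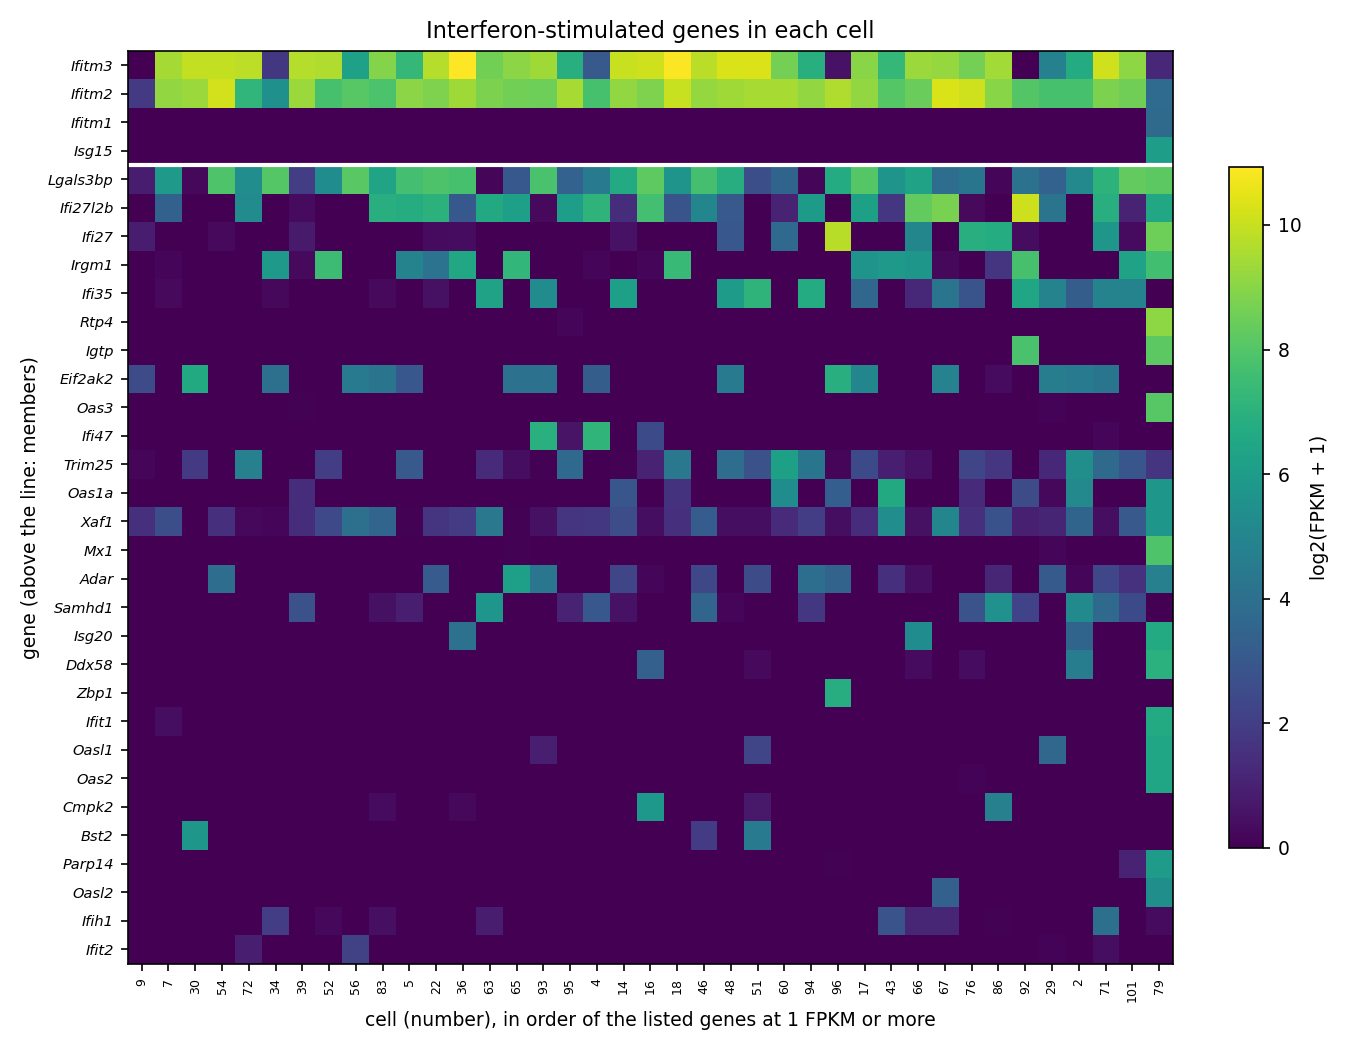
Level of 4 of the genes (above the white line) and of the 28 other interferon-stimulated genes that reached 1 FPKM in any cell, as log2(FPKM + 1) on a colour scale, with the 39 cells in columns ordered by how many of the listed genes were detected. Cell 79, at the far right, has 19 listed genes detected and the other cells have 2 to 9, while Ifitm2 and Ifitm3 are high in most other cells and low in cell 79.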

How the data were processed

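Single cells were captured on a C1 chip whose sites were inspected under the microscope, and the authors' methods name the SMARTer and Nextera XT kits without molecular identifiers, so counts do not number molecules. Doublets were not called. The submitters' processing notes name bcl2fastq 1.8.4, TopHat2 2.0.14 and build GRCm38. The counting tool and annotation release are not given in the sources used here. What the authors deposited were FPKM values and, beside them, estimated counts per gene and cell, without further normalization. FPKM was used as deposited, with log2(FPKM + 1) for differences, and the estimated counts served for depth and, rounded, for thinning to 600000 counts. A gene was called detected at 1 FPKM. Intervals are exact Clopper-Pearson 95% intervals and cover counting error only. The cell clusters of the study are not in the labels and were not used.

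The members, the gene lists and the comparisons were chosen with earlier results of these data known. Named genes were the 9 members, up to 4 genes of each list by mean FPKM (all genes of lists of up to 5), and the 5 genes nearest to each set (3 for Ly6e and Isg15); others are given as chosen after their values were seen, among them Lgr5, Smoc2, Psmb8, Ifnar1, Ifnar2, Ifnlr1, Jak2, Tyk2, Xaf1, Trim25, Tap2, Ciita, Irf7, Irf2 and those named for cell 79. The co-variation step was tested on simulated data. Alternatives were another pseudocount, Pearson's r, rescaled FPKM, CPM of the estimated counts, other detection limits, thinning, and leaving out cells. Scripts ran in Python 3.11.15 with scipy 1.17.1, pandas 2.3.3, numpy 2.4.6 and matplotlib 3.10.9.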

Additional observations from a re-analysis of the deposited data

How the results depend on the processing

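The rho of Ifitm2 with Ifitm3 stayed between 0.43 and 0.56 when each cell was left out in turn. The median rho over the 3 Ifitm pairs was -0.23 as reported. It was -0.34 with Pearson's r of log2(FPKM + 1) and 0.47 with only the members detected in at least 20 cells, which leaves 1 pair. It was 0 without cell 79 and 0 without the 2 cells with the fewest genes, where Ifitm1 is 0 throughout and its pairs are set to 0 by construction, and it ran from -0.25 to 0 when each cell was left out. The median over the 6 antigen presentation pairs was 0.15, 0.25 with Pearson's r, 0.089 without the 2 cells with the fewest genes, and 0.12 to 0.19 when each cell was left out. The median between both sets was 0.096, -0.046 with only the members detected in at least 20 cells, and 0.0051 to 0.12 when each cell was left out. Leaving out cell 79 and restricting the members were chosen after seeing the data. Over all gene pairs the median rho was -0.0052 without a filter and 0.054 at a mean of at least 10 FPKM. On the log2(FPKM + 1) scale the medians of the 6 widely detected genes moved by less than 1 SD over cells under both alternatives. Rescaling to the same sum changes the unit, and on the linear scale it raised the medians of all 6. Ifitm2 went from 448 to 912, Ifitm3 from 539.7 to 1081, B2m from 259 to 503 and H2-D1 from 123 to 264. With CPM of estimated counts, which ignores transcript length, Ly6e and H2-K1 changed places. At a limit of 10 FPKM, 69.2% of cells held H2-K1 and 0% held Tap1. Thinned to 600000 counts, which left out 1 cell, Tap1 had a count in 15.8% of cells and Isg15 in 2.63%. Of the 16 repeats of the most similar genes, 11 kept fewer than 2 in 3 of them, so those names depend on the measure. No paired analysis was possible because all cells belong to 1 group.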

Other observations

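MHC class II genes, which present peptides to helper T cells, were detected in part of the same epithelial cells. Cd74, the invariant chain, was detected in 20 of 39 cells, with a median of 1.55 and a highest value of 613 FPKM in cell 51. H2-Eb1 and H2-Ab1 were detected in 10 cells each, H2-Aa in 2, and Ciita, the master regulator of this group, in none. Cell 51, with 5666 genes detected in all, held 6 of the 7 class II genes on the list. Cell 79, with 2335 genes detected in all, held none of them. Of the DNA sensing genes, Mb21d1, which encodes cGAS, was detected in 17 cells, Tbk1 in 16, Trex1 in 8 and Tmem173, which encodes STING, in 5.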
